A study of Mus musculus with 10 samples.

Results

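The genes of MHC class II presentation were followed in 10 RNA sequencing libraries of mouse CD4 T cells. They were picked by symbol, as the 10 rows named H2-Aa, H2-Ab1, H2-Eb1, Cd74, H2-DMa, H2-DMb1, H2-DMb2, H2-Oa, H2-Ob and Ciita among the 53656 genes counted. All 10 were present in the tables, and all 10 passed the filter on low counts that kept 14214 genes for testing.

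The cells carried the transgenic SMARTA T cell receptor, specific for GP61, a peptide of the lymphocytic choriomeningitis virus. Naive donor cells were either TOX KO (6 libraries) or TOX WT (4 libraries); TOX is a nuclear HMG-box protein best known from developing and exhausted T cells. Both kinds went into B6 mice that had been given cytoxan (cyclophosphamide) and bore the B16-GP61 melanoma line, and were sorted from the tumour-draining lymph node (tdLN) on day 11. The 2 groups were not gated alike. KO cells were taken as CD4+ Ly5.1+ Ly5.2- and low for PD1, LAG3 and CD39, while WT cells were CD4+ Ly5.1+ Ly5.2+ and high for these 3 proteins. Genotype, gate and congenic marker cannot be told apart in this design. The labels do not give the ages of the mice, the allele behind the knockout, or which animals stand behind the replicates. The p-values therefore measure only how far these libraries spread, and part of that spread may be technical.

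MHC class II molecules present peptides from endocytosed proteins to CD4 T cells. The classical alpha and beta chains assemble with the invariant chain Cd74, which guards the groove until proteases cut it down, and H2-DM then exchanges the remaining fragment for a peptide while H2-DO holds H2-DM back. The coactivator Ciita switches the whole set on. B cells, dendritic cells and activated macrophages carry the pathway, whereas resting mouse T cells are known for having little class II of their own.

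Depth was 36028980 to 55784453 counts per KO library and 31939816 to 45481478 per WT library. Tox itself was at 15.3 to 67.9 CPM (counts scaled to TMM-adjusted library size) in KO and at 170 to 357 CPM in WT. Which part of Tox was deleted is not stated by the labels, so reads from the rest of the gene may be counted. WT replicate 1 stood apart, with 14365 genes detected against 19101 to 19775 in the other WT libraries and 15163 to 17304 in KO. The library names carry numbers, and numbers 1 to 3 (3 KO and 1 WT library) detected fewer genes than numbers 4 to 8 (3 KO and 3 WT libraries) in each group. The summed T cell markers, a list of 8 genes, were at 20653 to 25907 CPM in KO and 8947 to 17754 CPM in WT, so the labelled cell type was found in every library. Trac, the T cell receptor alpha constant region, was at 7926 ± 2222 CPM (SD, n = 6) in KO and 4287 ± 1883 CPM (SD, n = 4) in WT, and the kinase gene Lck at 5544 ± 882 and 3091 ± 719 CPM. Neither passed the test (edgeR adjusted p = 0.19 and 0.065). Of the 8 genes, 1 was called: Cd5, a surface receptor of T cells, was higher in KO (658 to 1310 CPM against 270 to 429 CPM, log2 1.65, edgeR adjusted p = 0.0090).

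In GRCm38, 8 of the 10 members lie on chromosome 17 between 34092340 and 34316199, a stretch of 223.9 kb. Ciita lies on chromosome 16 (10480059 to 10528418, plus strand). Class II promoters are known for a shared module, in which an X box bound by the RFX complex is followed by a Y box bound by NF-Y, and Ciita is recruited to the proteins on them. RefSeq promoter windows (GRCm38.p6, 250 bases before to 50 after a start) matched 7 of the 10 members. They were searched for a Y core, written GATTGG, and for an X core, written AACNNATG, that starts before it. A pair had 15 to 30 bases between the 2 cores. The members' cores were placed on the gene's own strand, before the start. The cores do not overlap, and these letters were chosen with the members' sequences in view. The following 70-base stretches are shown because H2-Eb1, H2-DMb2 and H2-Ob carry both cores. H2-Aa and H2-Oa are shown as well, since they carry the Y core at a similar distance from the start. They lack the X core letters 15 to 30 bases before it, and an X box in other letters was not searched for. Each core found is in capitals.
H2-Eb1 (chr17:34305757-34305826, plus strand): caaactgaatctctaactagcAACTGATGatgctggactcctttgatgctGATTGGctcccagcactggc
H2-DMb2 (chr17:34145108-34145177, plus strand): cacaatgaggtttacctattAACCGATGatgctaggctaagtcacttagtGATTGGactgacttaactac
H2-Ob (chr17:34238797-34238866, plus strand): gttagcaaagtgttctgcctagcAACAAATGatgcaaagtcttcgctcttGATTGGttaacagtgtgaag
H2-Aa (chr17:34287853-34287922, minus strand): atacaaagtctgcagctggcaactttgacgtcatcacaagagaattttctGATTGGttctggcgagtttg
H2-Oa (chr17:34092285-34092354, plus strand): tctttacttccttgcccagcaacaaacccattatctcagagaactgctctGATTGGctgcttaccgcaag

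Both cores were found in H2-Eb1, H2-DMb1 (not printed, since its stretch lies in an annotated exon of the gene), H2-DMb2 and H2-Ob, with 21, 22, 22 and 19 bases between them. H2-Aa and H2-Oa held the Y core without these X core letters 15 to 30 bases before it. In these 6 genes the Y core began 44 to 91 bases before the RefSeq start. H2-DMa held a Y core 199 bases before 1 of its 2 RefSeq starts, both of which lie upstream of the gene model counted here. Over both strands of the whole 300-base window, the ordered pair was present in 22 of 32851 RefSeq windows (0.067%). Searched singly in the same way, the Y core was present in 16.1% and the X core in 8.86%. Outside the members, 5 tested genes held the pair, and 1 of them was lower in KO. This was Icosl, which encodes the ligand of ICOS, whose mean was 18.7 CPM in KO libraries against 204 CPM in WT (-3.45 on the log2 scale, edgeR adjusted p = 0.0031). The other 4 (Casp8, Dpm1, H2-Eb2 and Mocs3) did not pass. A match of letters is a description and not a measured binding site.

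All 10 class II pathway genes were lower in KO by edgeR's quasi-likelihood test (adjusted p under 0.05, Benjamini-Hochberg over all tested genes), beside 2.70% of all genes tested, and none was higher, beside 0.429%. Every KO library lay below every WT library for each of the 10, which held for 6.31% of all genes tested. Their median log2 fold change was -4.55, against -0.12 over all tested genes. The members took 0.0694% to 0.298% of all counts in KO libraries and 1.88% to 4.16% in WT libraries. In WT, Cd74 had the second-highest mean CPM of the 14214 tested genes, and H2-Aa ranked 19. In bulk RNA, fewer cells of a type and less RNA per cell cannot be told apart. The background itself moved with single WT libraries. Without WT replicate 1, 2 or 4, the genes called lower over the whole table numbered 1201, 222 and 143 in place of 384, and across all fits without 1 library the genes called higher ranged from 10 to 443 in place of 61.

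**Figure D1:**
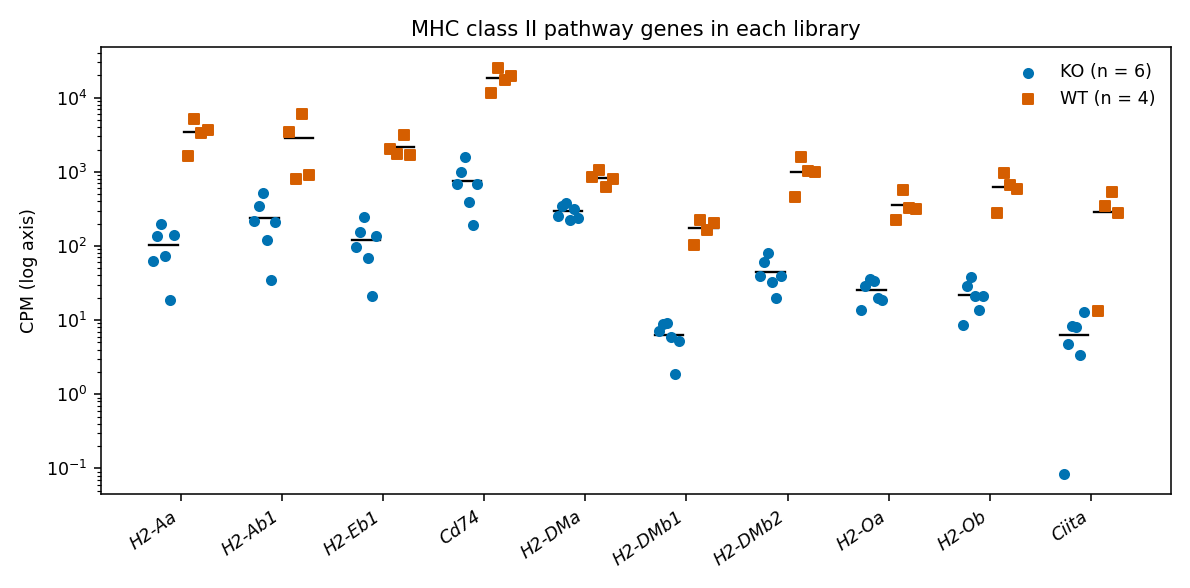
Expression of the 10 class II pathway genes in each library, in CPM on a log axis; circles are the 6 KO and squares the 4 WT libraries, and black lines are group means. In each gene the KO circles lie below the WT squares, with the narrowest gap at Ciita, where the highest KO library had 13.0 CPM and the lowest WT library 13.4 CPM.

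Genes of other cell types moved with the members. The 12 B cell markers summed to 82.4 to 336 CPM in KO and 2715 to 11347 CPM in WT. Of the 12, 8 were called lower in KO, beside 2.70% of all genes tested. Cd79a and Cd79b, the signalling chains of the B cell receptor, were lower by a log2 of -4.80 and -4.96 (edgeR adjusted p = 0.0023 and 9.3e-04). In KO, the B cell factor Pax5 was at 0 in 3 libraries and reached 1.47 CPM, and Ms4a1, which encodes CD20, was at 0 to 6.60 CPM. The 10 macrophage and monocyte markers summed to 7.93 to 198 CPM in KO and 1293 to 7129 CPM in WT (3 of 10 tested were called lower). The 10 dendritic cell markers summed to 1.31 to 27.7 and 43.2 to 287 CPM (1 of 8 tested was called lower). Called or not, every tested gene of the B cell, macrophage and monocyte, and dendritic cell lists had a negative log2 fold change. For genes near 0 in KO this sign is no separate result, since they passed the filter on low counts through WT alone. Clec10a was such a gene, with at most 0.20 CPM in KO and 11.9 to 22.4 CPM in WT. The values nearest to 0 were -3.29, -1.55 and -1.01. Lyz2, a lysozyme gene of myeloid cells, was lower (-5.53, edgeR adjusted p = 0.016). Csf1r, the receptor of a macrophage growth factor, had a log2 fold change of -5.67 and did not pass (0.14), nor did Itgax and Ccl22 of the dendritic cell list (-4.34 and -4.75, adjusted p = 0.30 and 0.21). Clec9a and Cd209a of the dendritic cell list were at 0 in every KO library and in WT replicate 1, and neither was tested. In WT replicates 2 to 4 they had 0.21 to 0.80 and 6.69 to 8.66 CPM.

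Of the plasma cell list, which summed to 75.2 to 746 CPM in KO and 796 to 5676 CPM in WT, 2 of 5 tested genes were called lower. Jchain, the joining chain of secreted antibody, was among them (-9.06, edgeR adjusted p = 0.036), while Xbp1, a secretory cell regulator, was not (0.69, 0.68). Xbp1 made up most of the list's sum in KO, at 57.7 to 714 CPM, and was at 49.8 to 475 CPM in WT. Immunoglobulin genes summed to 1047 to 1836 CPM in KO and 9041 to 175645 CPM in WT. Melanocyte markers (0 to 6.92 CPM summed over all libraries, Tyr at 0 in every one) and stroma markers (82.0 to 377 CPM, mostly Pecam1) held no called gene. In KO, Pmel of the first list averaged 3.42 CPM, and Pdgfrb of the second averaged 4.86 CPM. The part of B cell, plasma cell and myeloid RNA in the class II difference was not tested.

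The members were also set against the B cell list within each library. The members' summed CPM was 5.84 to 10.1 times that of the B cell markers in KO and 3.33 to 7.61 times in WT. The groups overlapped only through WT replicate 1 (7.61). WT replicates 2 to 4 were at 3.33, 4.40 and 4.22, below every KO library. Per length, in RPKM (CPM per kilobase of exon), Cd74 stood at 8.13 to 13.2 times Cd79a in KO and at 8.72 to 10.1 times in WT. The mean log2 ratios differed by 0.18, and the groups overlapped (a ratio chosen after the values were seen). Among KO libraries the members summed from 643 CPM in replicate 5 to 3069 CPM in replicate 3, and the same 2 libraries were lowest and highest for the B cell markers, but replicates 1 and 4 were in opposite order. The dendritic cell markers did not have this order, being lowest in KO replicate 3 (1.31 CPM).

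**Figure D2:**
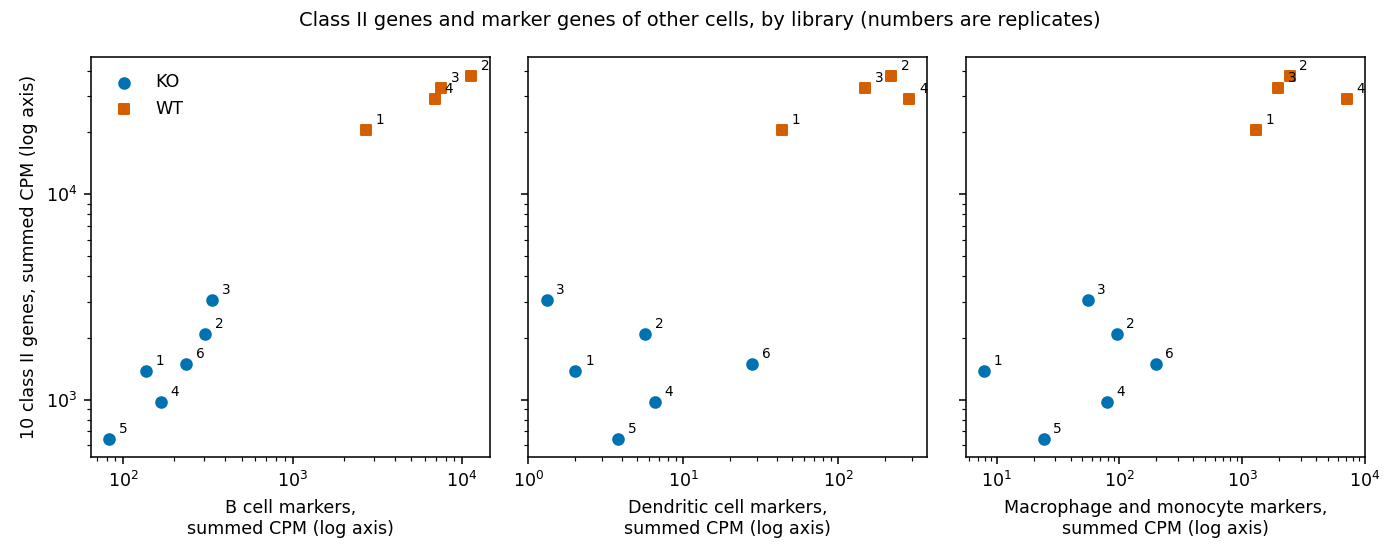
Summed CPM of the 10 class II pathway genes (vertical, log axis) against the summed CPM of B cell, dendritic cell and macrophage and monocyte markers (horizontal, log axes), with 1 point per library and the replicate number beside it. KO and WT form separate groups in each panel, and within KO replicates 5 and 3 are lowest and highest for both the class II sum (643 and 3069 CPM) and the B cell markers, while replicates 1 and 4 are in opposite order (1384 and 977 CPM against 136 and 167 CPM). The dendritic cell markers are lowest in replicate 3, and the macrophage and monocyte markers lowest in replicate 1 and highest in replicate 6. Single genes weigh heavily in these sums: in KO replicate 6, Ccl22 gave 21.5 of 27.7 CPM and Lyz2 139 of 198 CPM.

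The classical chains were lower in KO in every comparison of libraries. H2-Aa, the alpha chain of the I-A molecule (chromosome 17, 34282744 to 34287827, minus strand), had a lowest, median and highest KO value of 18.8, 105 and 196 CPM, and WT values of 1643, 5163, 3295 and 3659 CPM. The lowest WT library thus lay far above the highest KO library. Its means were 104 ± 64.0 CPM (SD, n = 6) in KO and 3440 ± 1445 CPM (SD, n = 4) in WT, which is -5.05 as a log2 fold change (SE 0.60, edgeR adjusted p = 0.0023), or 33.0-fold.

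H2-Eb1, the beta chain of I-E (34305877 to 34316199, plus strand), stood at 20.9, 117 and 246 CPM in KO (lowest, median, highest) and at 2009, 1746, 3125 and 1668 CPM in the 4 WT libraries. The WT values were close to each other, and the groups were well apart. The log2 fold change was -4.14 (SE 0.56, edgeR adjusted p = 0.0042), from 121 ± 78.0 CPM (SD, n = 6) in KO against 2137 ± 675 CPM (SD, n = 4) in WT. No gene was counted under the symbol of its alpha-chain partner, H2-Ea, only a pseudogene row, H2-Ea-ps. Whether I-E protein was made was not measured. The H2-Ea pseudogene row was at 0 to 0.77 CPM and too low to test.

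H2-Ab1, the beta chain of I-A (34263209 to 34269418, plus strand), was the least even classical chain. It had 34.4, 212 and 514 CPM in KO (lowest, median, highest) and 3490, 802, 6101 and 916 CPM in WT replicates 1 to 4. WT replicates 2 and 4 were thus several fold below the other 2 WT libraries, though still above every KO library. The log2 fold change was -3.56 (SE 0.76, edgeR adjusted p = 0.031). Leaving out 1 library at a time removed this call in 6 of 10 fits: without KO replicates 1, 2, 4 or 6 the adjusted p was 0.079, 0.064, 0.070 and 0.066, and without WT replicates 3 or 4 it was 0.060 and 0.053.

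The beta and alpha chain of I-A did not keep 1 proportion in WT. Per length, H2-Ab1 was at 1.71 to 3.97 times H2-Aa in the 6 KO libraries, and at 2.43, 0.178, 2.12 and 0.286 times in WT replicates 1 to 4. WT replicates 2 and 4 were therefore the only libraries in which the alpha chain had the higher RPKM. They also had the lowest values of GC-rich genes: the median log2 deviation of GC-rich minus GC-poor genes was -1.93 and -1.69 there, -0.85 in WT replicate 3, 0.87 in WT replicate 1 and between -0.07 and 1.73 in KO. The coding transcript of H2-Ab1 has 57.3% GC, above 87.2% of the tested genes with a value, and that of H2-Aa has 51.0%. With each library's GC trend removed, H2-Ab1 was at -4.11 (edgeR adjusted p = 0.0057) and still had lower values in WT replicates 2 and 4 (10.5 and 10.6 log2 CPM) than in replicates 1 and 3 (11.7 and 12.5). The part of GC content in the remaining gap was not tested.

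**Figure D3:**
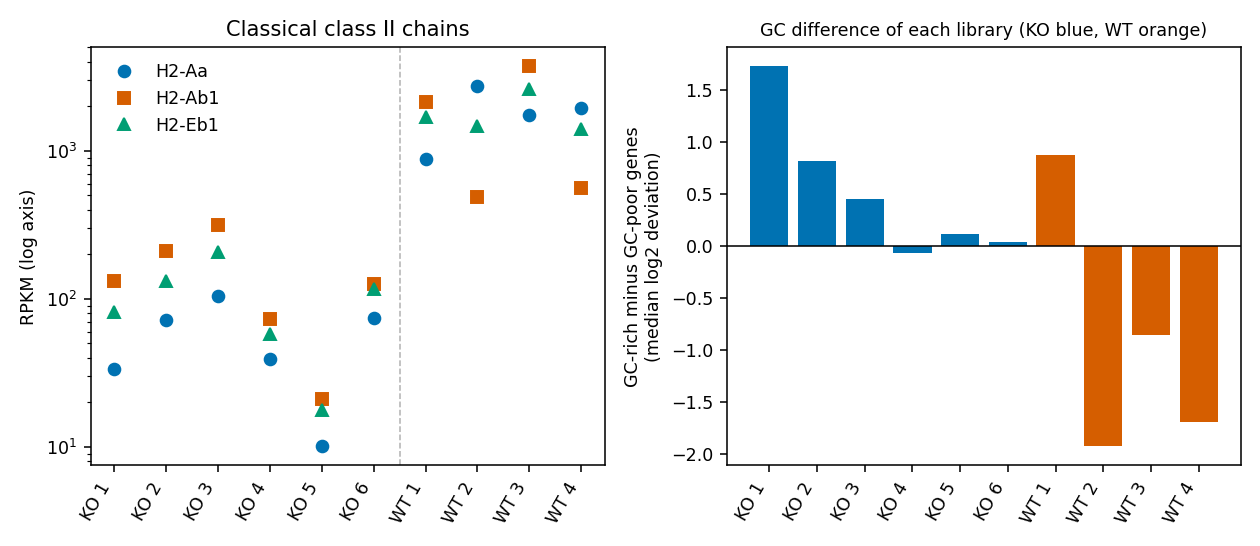
Left, RPKM (log axis) of the 3 classical chains in each library; right, the median log2 deviation of GC-rich minus GC-poor genes in the same libraries. H2-Ab1 lies above H2-Aa in 8 libraries and below it in WT replicates 2 and 4, whose GC differences of -1.93 and -1.69 are the lowest.

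The invariant chain gene Cd74 (chromosome 18, 60803848 to 60812646, plus strand) was the most abundant member. It had 193, 680 and 1565 CPM in KO (lowest, median, highest) and 11586, 25407, 17176 and 19762 CPM in the WT libraries, so the lowest WT library exceeded the highest KO library several fold. The means of 749 ± 483 CPM (SD, n = 6) and 18483 ± 5740 CPM (SD, n = 4) were -4.62 apart as a log2 fold change (SE 0.53, edgeR adjusted p = 0.0023). Cd74 made up 46.9 ± 7.58% (SD, n = 6) of the summed RPKM of the 10 genes in KO and 64.3 ± 8.43% (SD, n = 4) in WT. Relative to the 3 classical chains together it was at 1.52 to 2.80 in KO, and at 1.75, 3.82, 1.499 and 3.57 in WT replicates 1 to 4. The 2 higher WT ratios were again those of replicates 2 and 4.

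H2-DM genes split into 1 with a small difference and 2 with a large one. H2-DMa, which encodes the alpha chain of the peptide exchange molecule (34135182 to 34139101, plus strand), had 222, 287 and 377 CPM in KO (lowest, median, highest) and 852, 1053, 619 and 803 CPM in WT. The groups did not overlap, and the fold change between their means was the smallest of the 10 members. Means were 293 ± 62.1 CPM (SD, n = 6) and 832 ± 179 CPM (SD, n = 4), or -1.51 as a log2 fold change (SE 0.23, edgeR adjusted p = 0.0078), or 2.84-fold. Per length, H2-DMa was thus the second most abundant member in KO by mean share (20.98 ± 13.2% of the members' summed RPKM, SD, n = 6) and 2.61 ± 0.81% (SD, n = 4) in WT. The ratio of H2-DMa to Cd74 was 10.2-fold higher in KO, a log2 difference of 3.35. This pair was chosen after its fold changes were seen, so the difference is a description with no test. It stayed between 2.98 and 3.57 without any 1 library. With GC trends removed, H2-DMa was at -1.91 (edgeR adjusted p = 0.0040).

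H2-DMb1 and H2-DMb2 both encode a beta chain that pairs with H2-DMa. H2-DMb2 (34143307 to 34151553, plus strand) had 19.7, 39.1 and 79.8 CPM in KO (lowest, median, highest) and 463, 1563, 1028 and 986 CPM in WT (-4.48 on the log2 scale, SE 0.45, edgeR adjusted p = 0.0012). WT replicate 1 was the lowest of its group and still lay above every KO library.

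H2-DMb1 (34153072 to 34160230, plus strand) was the lower of the pair throughout, at 1.85, 6.48 and 9.13 CPM in KO and 104, 227, 165 and 204 CPM in WT (-4.79, SE 0.46, edgeR adjusted p = 9.4e-04). Its RPKM was 0.108 to 0.208 times that of H2-DMb2 in KO and 0.167 to 0.260 times in WT, so the groups overlapped. The 2 genes resemble each other. Of all 50-base windows in the longest coding transcript, 27.2% of those of H2-DMb1 also occurred in H2-DMb2, and reads from such windows match several places. Counts of both are therefore uncertain, and their proportion more so.

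**Figure D4:**
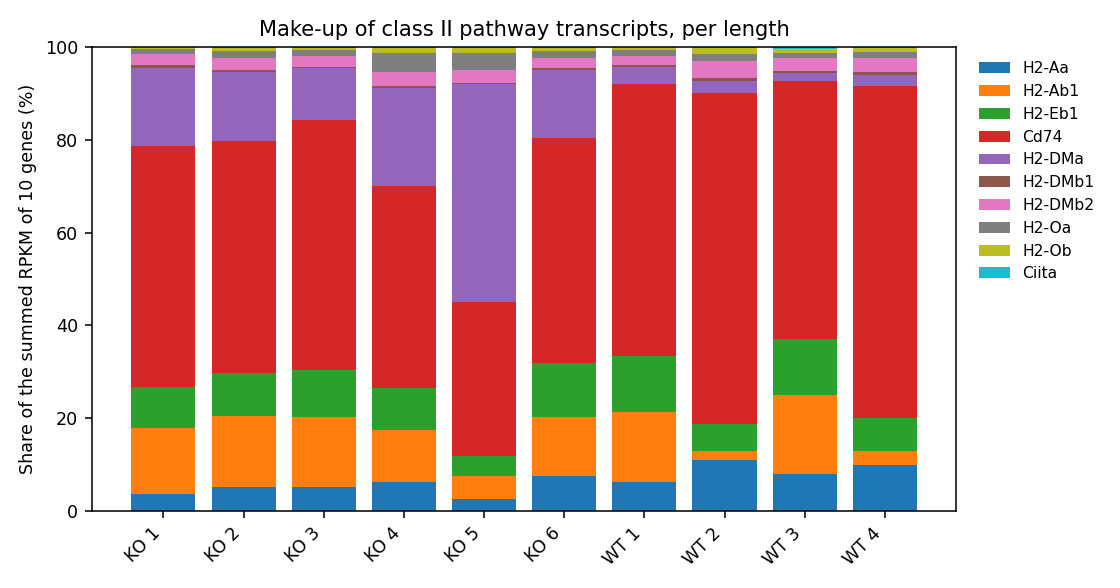
Share of each gene in the summed RPKM of the 10 class II pathway genes (%), stacked for each of the 6 KO and 4 WT libraries. H2-DMa takes 11.2% to 47.1% in KO, the highest in replicate 5, and 1.72% to 3.70% in WT, while Cd74 takes 33.2% to 53.9% in KO and 55.6% to 71.6% in WT.

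The genes of H2-DO, the inhibitor of H2-DM that is known mainly from B cells, were both lower in KO. H2-Oa, its alpha chain (34092340 to 34095234, plus strand), had 13.8, 24.5 and 35.3 CPM in KO (lowest, median, highest) and 226, 563, 329 and 311 CPM in WT (-3.83 on the log2 scale, SE 0.37, edgeR adjusted p = 9.4e-04). H2-Ob, its beta chain (34238903 to 34245907, plus strand), had 8.61, 21.1 and 38.7 CPM in KO and 275, 956, 663 and 579 CPM in WT (-4.82, SE 0.48, edgeR adjusted p = 0.0012). WT replicate 1 was lowest and WT replicate 2 highest in its group for both chains.

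By summed RPKM, the 2 H2-DO genes stood at 0.0718 to 0.205 times the 3 H2-DM genes in KO and at 0.302 to 0.428 times in WT, so these ranges did not overlap. H2-DMa makes up most of the H2-DM sum in KO. H2-Oa shares 200 bp of exon with a gene on the opposite strand, and 21.7% of its 50-base windows occur in another gene model. The counting used no strand option, so reads of the 2 genes within those 200 bp cannot be told apart.

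Ciita, the class II transactivator, was among the lowest members in KO, beside H2-DMb1, and its values were uneven in both groups. KO replicates 1 to 6 had 0.085, 4.71, 8.30, 8.08, 3.36 and 13.0 CPM, and WT replicates 1 to 4 had 13.4, 342, 533 and 275 CPM. WT replicate 1 thus lay next to the highest KO library, while the other 3 WT libraries held 275 to 533 CPM. In KO replicate 1 the value rested on 3 counts, and in WT replicate 1 on 556. The log2 fold change was -5.54 (SE 1.12, edgeR adjusted p = 0.026), from 6.25 ± 4.50 CPM (SD, n = 6) and 291 ± 215 CPM (SD, n = 4).

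Ciita likewise missed the threshold in 6 of the 10 leave-one-out fits. Without KO replicates 2, 3, 4 or 5 the adjusted p was 0.068, 0.058, 0.058 and 0.063, and without WT replicates 2 or 4 it was 0.064 and 0.074. WT replicate 1 held as much classical chain RNA as its group in part (H2-Ab1 3490 CPM, H2-Eb1 2009 CPM) with little Ciita, so its ratio of classical chain RPKM to Ciita RPKM was 3345, against 131 to 145 in the other WT libraries. In KO the same ratio was 138 to 842 in replicates 2 to 6. Ciita shares 329 bp of exon with Dexi on the opposite strand.

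Compared over subsets of libraries, the members were lower in KO throughout, but by different amounts. Among library numbers 4 to 8 (3 KO, 3 WT), 9 of 10 were called lower, beside 7.18% of all genes tested in that fit (0.842% were higher), the exception being H2-Ab1 (-4.43, edgeR adjusted p = 0.054). Among numbers 1 to 3 (3 KO, 1 WT, where the lone WT library is assumed to vary like the KO libraries), 5 of 10 were called lower, and log2 fold changes ran from -3.61 (H2-Aa) to -1.35 (H2-DMa). Over all 15078 genes of that fit the balance was the other way, with 79 lower (0.524%), 316 higher (2.10%) and a median log2 fold change of 0.37. Ciita was at -1.58 there (edgeR adjusted p = 0.59) and at -5.52 among numbers 4 to 8 (0.0080). The difference between the subsets was not tested. Without any 1 library, 8 to 10 members were called, and the 8 members other than H2-Ab1 and Ciita passed in all 10 of these fits. Over all genes, these fits called 143 to 1201 lower.

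**Figure D5:**
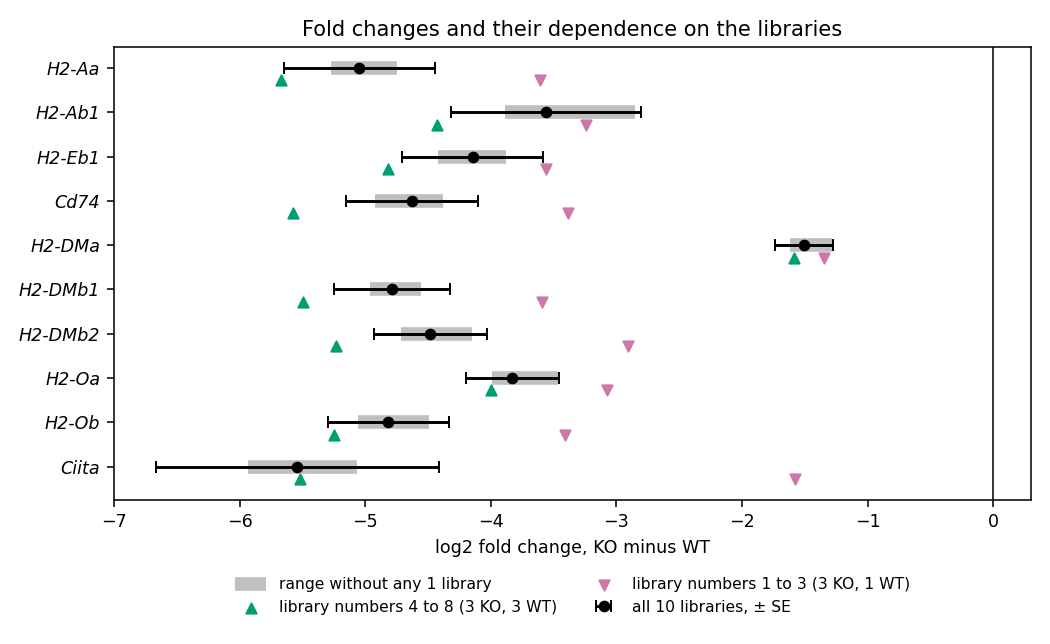
Log2 fold change (KO minus WT) of each class II pathway gene: black points with bars are the estimate from all 10 libraries ± SE, grey bands the range without any 1 library, and triangles the fits to library numbers 4 to 8 and 1 to 3. The estimates run from -5.54 (Ciita) to -1.51 (H2-DMa), and the fit to numbers 1 to 3, which holds 1 WT library, lies nearer to 0 than that to numbers 4 to 8 in all 10 genes.

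The profile of the 3 classical chains over the 10 libraries was set beside those of 7913 other genes that averaged 8 CPM or more. Immunoglobulin genes, genes with mitochondrial (mt-) names and symbols such as Gm numbers or Rik were left out beforehand, so none could be listed. Likeness was measured as the mean absolute difference of log2 CPM after each gene's own mean was taken off. The 8 closest genes were Pkig, Cd79a, Ly6d, B3gnt8, RP24-342G5.6, Ctsh, Alox5ap and Napsa, at distances of 0.39 to 0.61 log2 units. Cd79a is a chain of the B cell receptor, Ctsh encodes cathepsin H, and Napsa encodes an aspartic protease. Among the members outside the classical chains, Cd74 (0.46), H2-DMb1 and H2-DMb2 (0.57 each) were as near, H2-Ob (0.77) and H2-Oa (0.81) farther, and H2-DMa (1.39) and Ciita (1.88) farthest. These distances are descriptions, since the difference between the groups enters every profile.

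Most genes between the members on chromosome 17 were not called. Of 10 other genes counted between 34092340 and 34316199, 9 were tested, with a median log2 fold change of 0.42. A low-abundance gene model, RP23-123G8.18 (0.023 CPM in KO and 7.10 in WT), was lower, and none was higher. The peptide transporter genes Tap1 and Tap2, the immunoproteasome genes Psmb8 and Psmb9, and Brd2 did not pass.

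MHC class I genes, which present peptides of cytosolic proteins, did not pass either (0 of 7). H2-K1 was at 7894 ± 1224 CPM (SD, n = 6) in KO and 3205 ± 2502 CPM (SD, n = 4) in WT (log2 fold change 1.30, edgeR adjusted p = 0.21). B2m, the light chain of class I, was at -0.60 (0.36). WT replicates 2 and 4, the libraries with low H2-Ab1, also had the lowest H2-K1 (989 and 1091 CPM) and H2-D1 (512 and 911 CPM).

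Beyond the members, 36 genes that act with class II were listed by role. Of these, 35 were in the tables and 33 were tested; 3 were lower in KO, none was higher, and the median log2 fold change was -0.63. Without WT replicate 1 the 3 became 8 of 34 and 2 were higher. The same fit called 1201 of all 15197 tested genes lower and 443 higher, so the background rose as well. In the low direction, 3 of 33 is set beside the 2.70% of all genes.

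All 3 called genes act on antigen in endosomes, a list on which they made 3 of 10. Ifi30 encodes the thiol reductase GILT, which opens disulfide bonds of antigens. It had 25.2, 29.1 and 39.0 CPM in KO (lowest, median, highest) and 291, 340, 213 and 400 CPM in WT (-3.32, SE 0.27, edgeR adjusted p = 7.9e-04). Lgmn, the asparagine endopeptidase, had 13.8, 29.3 and 57.0 CPM in KO and 229, 320, 246 and 312 CPM in WT (-3.15, SE 0.38, edgeR adjusted p = 0.0024). The cathepsin H gene Ctsh had 0.81, 12.3 and 22.5 CPM in KO and 231, 285, 422 and 317 CPM in WT (-4.74, SE 0.74, edgeR adjusted p = 0.0081). No KO library reached the lowest WT library in any of the 3.

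The 4 most abundant of the other genes on the list did not pass. Ctss, which encodes the protease known for the last cut of the invariant chain, was at 230 ± 79.2 CPM (SD, n = 6) in KO and 505 ± 202 CPM (SD, n = 4) in WT (-1.14, edgeR adjusted p = 0.11). Ctsb and Ctsd had log2 fold changes of -0.71 and -0.54 (0.10 and 0.21). Ctse stood the other way, with a KO mean of 752 ± 55.7 CPM (SD, n = 6) and a WT mean of 402 ± 167 CPM (SD, n = 4), and did not pass (0.90, 0.11).

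Genes for the proteins that bind class II promoters did not pass (0 of 7, median -0.05). Rfxank, a subunit of the RFX complex, was at 74.8 ± 4.42 CPM (SD, n = 6) in KO and 78.7 ± 22.4 CPM (SD, n = 4) in WT. Nfyb and Nfyc, subunits of NF-Y, differed by a log2 of -0.62 and 0.98 (edgeR adjusted p = 0.37 and 0.40). Rfxap, another RFX subunit, separated the libraries by number and not by genotype. KO replicates 1 to 3 held 89.5 to 112 CPM and WT replicate 1 held 86.5 CPM, while the other 6 libraries held 0.73 to 2.36 CPM.

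Genes known to act on Ciita transcription gave no call (0 of 10, median 0.07). Irf1, an interferon-induced activator, was at 722 ± 73.1 CPM (SD, n = 6) in KO and 333 ± 139 CPM (SD, n = 4) in WT without overlap, a log2 fold change of 1.11 that did not pass (edgeR adjusted p = 0.067). Prdm1, a repressor of Ciita in plasma cells, was at 0 to 1.04 CPM in KO and 5.78 to 41.3 CPM in WT (-5.70, 0.093), and Spi1, a myeloid and B cell factor, at 1.03 to 23.5 and 8.46 to 196 CPM (-3.04, 0.16); these 2 were named after their values were seen. Irf8, Jak1 and the interferon gamma receptor gene Ifngr1 were at -1.24, 0.59 and 0.13 (0.34, 0.58 and 0.82). Genes that set class II at the cell surface or accompany it in antigen-presenting cells gave none either (0 of 5 tested). Cd40, a receptor for T cell help on such cells, was at 0 to 17.5 CPM in KO and 42.0 to 221 CPM in WT (-4.39, edgeR adjusted p = 0.077). Cd86 had -3.62 (0.18) and Cd83 -0.74 (0.46). March1, the ligase that removes class II from the surface, was listed at 0 in all 6 KO libraries and in WT replicate 1, with 37.9 to 49.2 CPM in the other 3 WT libraries, and was not tested. H2-Eb2, a further class II beta chain gene, was at 0 to 0.58 CPM in KO and 0.68 to 25.3 CPM in WT (-7.03, edgeR adjusted p = 0.062).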

How the data were processed

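The deposited tables hold counts of read pairs per gene, which the authors made with featureCounts 1.6.2 on GENCODE M17 (GRCm38.p6), per the file headers. The headers show no strand option and no counting of reads that match several places. FastQC and STAR are named, without version, in the submitters' processing notes. RNA was amplified with a SMART-seq kit and sequenced paired end, per the labels' protocols.

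The main comparison of the 2 groups used these counts in a quasi-likelihood fit (edgeR 4.0.16, limma 3.58.1, R 4.3.3) with TMM factors, filterByExpr, genotype as the only term and Benjamini-Hochberg adjustment over 14214 genes, with a threshold of 0.05. Fold changes are KO minus WT; SE was derived from the F statistic. Log2 CPM used a prior count of 2. RPKM used the deposited exon length. GC content and shared 50-base windows came from GENCODE M21 transcripts (GC was known for 11629 of the 14214 genes). Promoter windows came from RefSeq (GRCm38.p6). No 2 libraries of 1 group agreed within sampling noise. The procedure was tested on simulated data.

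The members and all lists were chosen with earlier results of these data known. Named genes were the members, called pathway genes, up to 4 others per pathway list by mean CPM, the 2 most abundant genes of each marker list, and the 8 closest profiles; the genes of the chromosome 17 interval, class I, the X and Y cores, the ratios and further marker genes were added after values were seen. Alternatives were other scaling factors, no filter, DESeq2 1.42.0, limma-voom, a threshold of 0.01, leaving out each library, a replicate block, a term for the library set, each library set alone and, added after the data were seen, removal of the GC trend.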

Additional observations from a re-analysis of the deposited data

Results flagged for a closer look

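Of 38 groups of values examined (10 members and 9 ratios, each in KO and in WT), 4 held a single library far from the rest of its group; chance alone does this in about 1 in 20 groups. The 9 ratios share genes, so these 4 are not independent. All 4 are ratios of RPKM values. In KO replicate 5, Cd74 stood at 2.80 times the 3 classical chains, against 1.52 to 1.95 in the other KO libraries. In the same library the 3 H2-DM genes stood at 4.24 times the classical chains, against 0.451 to 0.936. That library had the lowest classical chains (18.8 CPM of H2-Aa) and an H2-DMa of 318 CPM, near the middle of its group. The classical chains stood at 27830 times Ciita in KO replicate 1, against 138 to 842 in the other KO libraries; the divisor there was 3 counts. They stood at 3345 times Ciita in WT replicate 1, against 131 to 145 in the other WT libraries, with 556 counts of Ciita.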

How the results depend on the processing

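All 10 members were lower in KO in each of the 230 fits of 1 member under 1 alternative, and 199 passed the threshold. Leaving out 1 library in turn left 8 to 10 members called, in fits that called 143 to 1201 genes lower over the whole table. At 0.01, where 121 of the 14214 tested genes were called lower, 8 members were called. The number called lower moved to 5 among library numbers 1 to 3 alone and to 0 with the replicate block, which left 0 calls in the whole table. KO and WT libraries of the same replicate number, 1 to 4, correlated at 0.29, -0.25, -0.22 and 0.30. Replicates 2 and 3 are library numbers 2 and 3 in KO but 5 and 6 in WT, so these blocks cross the 2 library sets. KO replicates 5 and 6 have no WT library of their replicate number. Libraries that share a library number were not compared, so whether any samples are paired was not settled. Members had block adjusted p of 0.056 to 0.18. Of the other pathway genes, 3 were lower and 0 higher in the main comparison. The number lower was 14 with libraries scaled to T cell receptor complex genes, 12 with DESeq2, 15 with limma-voom, 0 with the replicate block, 5 with a term for the library set, 8 among library numbers 4 to 8 alone and 6 with the GC trend removed, and ran from 3 to 8 without 1 library. The number higher was 2 with DESeq2, 3 with limma-voom, 1 among library numbers 4 to 8 alone and 1 among numbers 1 to 3 alone, and ran from 0 to 2 without 1 library. The cause was not tested. Over all genes, DESeq2 called 1571 lower and 675 higher and limma-voom 2768 and 2563, in place of 384 and 61. T cell receptor scaling moved the median of all genes from -0.12 to -0.93, called 1861 lower and 17 higher, and moved the members' median to -5.36. The upper-quartile factors put the median of all genes at -0.26. Ciita in KO replicate 1 rested on 3 counts of 40987266, a depth within the range of the other KO libraries.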

Other observations

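Some genes of the listed pathway separated the libraries by their number in place of genotype, a pattern seen first for Rfxap and then looked for in the rest of the list. Ifngr2, which encodes a chain of the interferon gamma receptor, had 74.3 to 91.9 CPM in KO replicates 1 to 3 and 104 CPM in WT replicate 1, while KO replicates 4 to 6 had 5.89 to 13.0 CPM and WT replicates 2 to 4 had 8.89 to 25.9 CPM. Its log2 fold change between genotypes was 0.21 (edgeR adjusted p = 0.92). The first of these sets is library numbers 1 to 3, and no cause of the difference between the sets was tested.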
